A study of Homo sapiens with 6 samples.

Results

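Oncofetal genes are expressed in fetal liver, are mostly silent in the adult organ and are switched on again in many hepatocellular carcinomas, where several serve as serum or tissue markers. The set described here holds 10 genes grouped under this heading, AFP, GPC3, SPINK1, LIN28B, IGF2BP1, IGF2BP2, IGF2BP3, PEG10, DLK1 and TERT, chosen by name. Of these, IGF2BP2 is also expressed in many adult tissues. All 10 were found among the 19021 genes of the deposited expression table, 8 of them at a mean of at least 1 FPKM (fragments per kilobase of gene, scaled to library size) over the libraries. The samples were Huh7 cells, a human hepatocellular carcinoma line that the labels give as wild type, kept for 24 h with DMSO, the solvent (3 libraries), or with carfilzomib, an inhibitor of the proteasome (3 libraries), and measured by RNA sequencing. Only 1 cell line was used, and the labels state no dose.

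The library totals behind the FPKM values, recovered from ratios between these values, were 38386581 to 39651170 reads. Of these reads, 99.603 to 99.645% lay in the listed genes, and shares of all reads below are shares of these totals. On the first principal component, with 96% of the variance, the groups separated. The second component, with 1.22%, set DMSO replicate 1 apart from both other DMSO replicates. All 10 hepatocyte markers examined, among them ALB and HNF4A, were at a mean of at least 1 FPKM, with a summed level of 5486 to 5619 FPKM with DMSO and 2278 to 2395 FPKM with carfilzomib. Of 5 bile duct markers, 3 passed 1 FPKM, and the list summed to 156 to 161 FPKM with DMSO and 219.6 to 223 FPKM with carfilzomib. Of these 3, KRT19 rose (83.3 ± 2.47 to 161 ± 2.40 FPKM), while EPCAM (44.1 ± 1.42 to 35.1 ± 1.27) and SOX9 (29.5 ± 2.08 to 24.6 ± 0.748), outside the rule for named genes, fell. Markers found above 1 FPKM were 2 of 5 for fibroblasts (18.9 to 19.2 FPKM with DMSO and 14.9 to 15.05 FPKM with carfilzomib), 1 of 4 for endothelium (3.74 to 4.33 FPKM with DMSO and 2.39 to 3.00 FPKM with carfilzomib) and 1 of 3 for blood, CD68 (34.2 to 35.0 FPKM with DMSO and 46.6 to 47.6 FPKM with carfilzomib). No marker in the table was at 0 in all libraries, and the part of the marker lists in the results was not tested. Separate cultures are not stated for the replicates, so the p-values rest on a spread between libraries that may be technical.

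The members act at different points. AFP and SPINK1 are secreted proteins, and GPC3 and DLK1 sit at the cell surface. LIN28B and the IGF2BP proteins bind RNA: LIN28B blocks the maturation of the let-7 microRNAs, and IGF2BP proteins bind mRNAs and protect many of them from decay. PEG10 is a gene of retrotransposon origin expressed from the paternal allele, and TERT is the catalytic subunit of telomerase.

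With carfilzomib, PEG10, AFP, GPC3, IGF2BP3 and IGF2BP1 fell and SPINK1, LIN28B and IGF2BP2 rose. Thus 5 of the 8 tested members were called lower and 3 higher by limma with Benjamini-Hochberg adjustment over all 11153 tested genes (calls at an adjusted p under 0.05). Most tested genes were called, 81.6% in all, with 44.9% lower and 36.7% higher, so a call alone does not set a member apart. PEG10 and AFP, 2 of the 8, fell by at least 1 on the log2 scale, as did 7.84% of tested genes. The median difference in log2(FPKM + 1), carfilzomib minus DMSO, was -0.54 over the 8 tested members and -0.07 over all tested genes. In each of the 8, and in DLK1 and TERT below the filter, the groups did not overlap. Over all tested genes this held for 82.8%, with carfilzomib below DMSO in 45.4% and above in 37.4%. The share among genes below the filter was not computed, so none stands beside DLK1 and TERT. Together the 10 genes took 1.43 ± 0.00399% of all reads with DMSO and 0.669 ± 0.00392% with carfilzomib (SD, n = 3), most of it from AFP. In bulk RNA, fewer cells expressing a gene and less of its RNA per cell cannot be told apart.

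**Figure D1:**
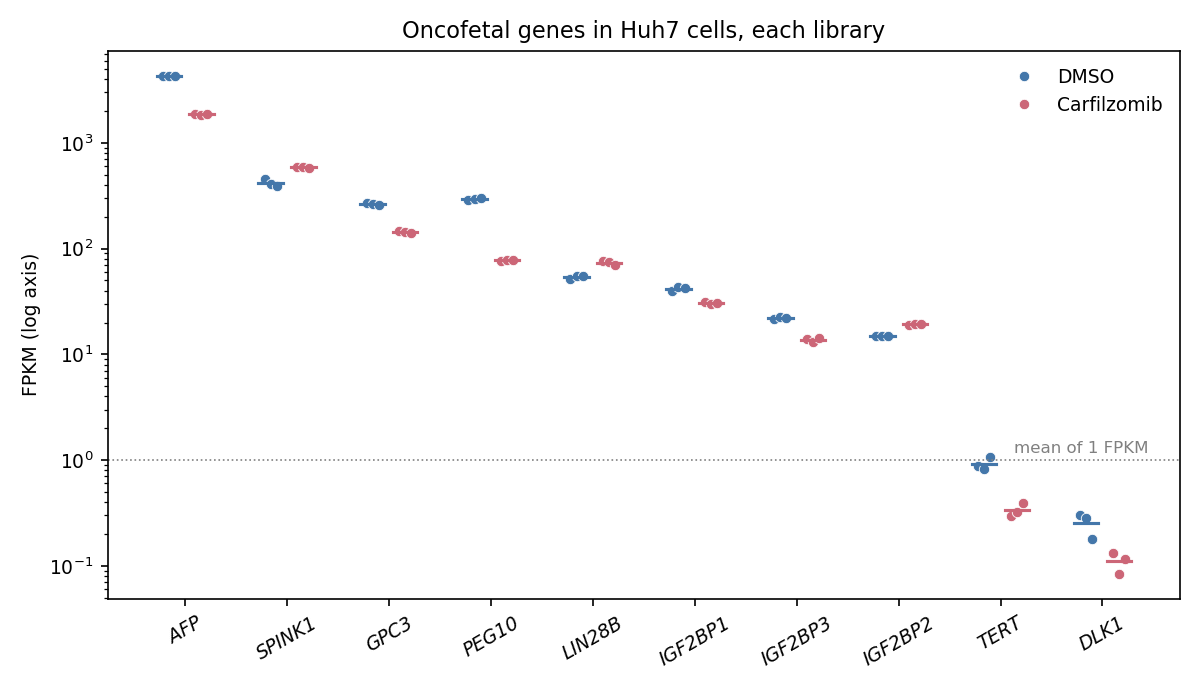
FPKM of the 10 oncofetal genes on a log axis, ordered by their mean level, with 1 point per library (blue, DMSO; red, carfilzomib) and a bar at the mean of each group of 3. The DMSO means run from 4306 FPKM for AFP to 0.254 FPKM for DLK1, and the points of the groups do not overlap for any of the 10.

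**Figure D2:**
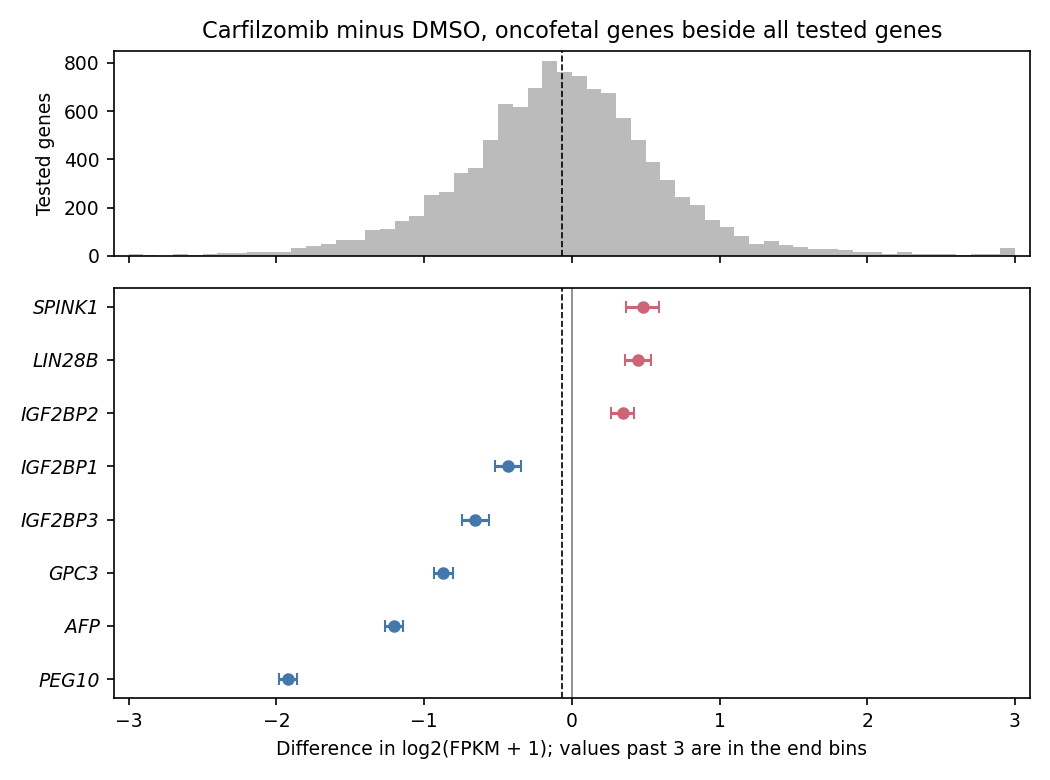
Upper panel, number of tested genes (of 11153) by their carfilzomib minus DMSO difference in log2(FPKM + 1). Lower panel, the same difference for the 8 tested oncofetal genes with 95% confidence intervals from limma; the dashed line is the median of all tested genes (-0.07), PEG10 is lowest at -1.92 and SPINK1 highest at 0.48.

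AFP encodes alpha-fetoprotein, the main serum carrier protein of the fetus and the standard blood marker of hepatocellular carcinoma. It was at 4329, 4276 and 4312 FPKM with DMSO and at 1877, 1855 and 1879 FPKM with carfilzomib. The libraries of each group lay close together and far from the other group. AFP fell 2.30-fold, from 4306 ± 27.3 to 1870.5 ± 13.3 FPKM (SD, n = 3; log2 difference -1.20, 95% interval -1.26 to -1.14, adjusted p = 2.23e-10 by limma). Its share of all reads went from 1.04% to 0.454%. A lower log2 difference than that of AFP was seen in 5.03% of tested genes. Its relatives in the albumin gene cluster fell too, ALB, which encodes serum albumin, from 2699.8 ± 87.4 to 1089.9 ± 26.4 FPKM and GC, the vitamin D-binding protein, from 58.8 ± 0.512 to 15.4 ± 0.583. The ratio of AFP to ALB within a library was 1.55, 1.61 and 1.64 with DMSO and 1.68, 1.72 and 1.75 with carfilzomib. These ratios did not overlap but differed by 0.11 on the log2 scale.

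Genes known to regulate AFP mostly fell. Of 20 tested, 16 were lower, 3 higher and 1 (TCF3) did not pass, with a median log2 difference of -1.05 against -0.07 for all tested genes. The counts of this and the later lists stand beside 44.9% lower and 36.7% higher over all tested genes. These lists were chosen with earlier results of these data known. A gene whose mean passed 1 FPKM only through 1 group had to differ to be tested, so such genes are named or counted with their list. On the log2(FPKM + 1) scale, the largest falls of the list were in the liver factors ONECUT1 (9.46 ± 0.481 to 1.01 ± 0.132 FPKM), NR1H4, the bile acid receptor (17.2 ± 0.297 to 3.57 ± 0.589), and CEBPA (131 ± 9.90 to 35.4 ± 1.02). ZBTB20, a repressor of AFP in postnatal mouse liver, rose from 1.98 ± 0.210 to 4.45 ± 0.153 FPKM, as did the transcription factors CEBPB (119 ± 5.16 to 138 ± 1.42) and NFIC (0.714 ± 0.0335 to 1.33 ± 0.124). NFIC was tested only through its level with carfilzomib. Its paralogs NFIA (1.09 ± 0.159 and 0.406 ± 0.0534 FPKM), NFIB (0.454 ± 0.0857 and 0.150 ± 0.0520) and NFIX (0.438 ± 0.108 and 0.526 ± 0.0974), outside the rule for named genes, were below the filter. The groups overlapped for NFIX. ZHX2, an AFP repressor known from mice and outside the rule for named genes, fell from 7.74 ± 0.254 to 4.48 ± 0.445 FPKM.

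The 250 bases before the AFP start site are shown because AFP is the most abundant member. They lie at chr4:73435971-73436220 on the plus strand (RefSeq, GRCh38.p14), upstream of the first exon. Capitals mark the TATA box (TATAAA).
AFP upstream window: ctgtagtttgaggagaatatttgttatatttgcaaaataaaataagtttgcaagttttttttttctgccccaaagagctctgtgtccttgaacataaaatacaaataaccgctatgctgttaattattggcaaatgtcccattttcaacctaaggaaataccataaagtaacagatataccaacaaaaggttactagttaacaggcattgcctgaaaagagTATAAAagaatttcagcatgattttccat
Searched on both strands, the TATA box was in 10.72% of the 35116 reference windows of this length. In AFP it starts 29 bases before the start site. A motif match describes the sequence, and binding was not measured.

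GPC3 encodes glypican-3, a heparan sulfate proteoglycan anchored to the cell surface and a tissue marker and drug target in liver cancer. It was at 268, 264 and 261 FPKM with DMSO and at 148, 143 and 141 FPKM with carfilzomib. Every carfilzomib library was well below every DMSO library. GPC3 fell 1.83-fold, from 264 ± 3.89 to 144 ± 3.22 FPKM (log2 difference -0.87, 95% interval -0.93 to -0.81, adjusted p = 1.87e-09 by limma). The ratio of AFP to GPC3 within a library went from 16.3 ± 0.219 to 13.0 ± 0.286 (SD, n = 3).

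Other glypicans were at much lower FPKM than GPC3. GPC6, outside the rule for named genes, fell from 3.48 ± 0.0475 to 2.36 ± 0.0801 FPKM. GPC1 rose from 0.114 ± 0.0826 to 2.32 ± 0.107 FPKM, on 54 reads over the DMSO libraries and 1086 over the carfilzomib libraries, and passed the filter only through carfilzomib. GPC4, the neighbour of GPC3 on the X chromosome, was below 1 FPKM on average (0.562 ± 0.0664 and 0.838 ± 0.126). The ratio of GPC3 to GPC4 within a library was 425 to 528 with DMSO and 151 to 193 with carfilzomib. Of 21 tested genes of glypicans, syndecans and heparan sulfate synthesis, 15 fell, 3 rose (GPC1 included) and 3 did not pass, with a median log2 difference of -0.39. The largest falls were in the syndecans SDC1 (31.5 ± 1.37 to 11.5 ± 0.838 FPKM) and SDC2 (43.6 ± 1.79 to 20.3 ± 0.721) and in FURIN, a protease that cleaves the GPC3 precursor (183 ± 2.22 to 78.5 ± 4.51). Besides GPC1, the heparan sulfate synthesis genes NDST1 (19.8 ± 0.163 to 27.0 ± 0.695 FPKM) and EXTL3 (4.33 ± 0.149 to 5.35 ± 0.452) rose.

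SPINK1 encodes a small secreted trypsin inhibitor that is also made by many tumours and can be induced by interleukin-6. It was at 460.5, 410.2 and 394 FPKM with DMSO and at 592, 591 and 577 FPKM with carfilzomib. The carfilzomib libraries varied by 1.42% (coefficient of variation), while DMSO replicate 1 was above the other DMSO libraries by 0.20 on the log2 scale. SPINK1 rose 1.39-fold, from 421 ± 34.8 to 587 ± 8.36 FPKM (log2 difference 0.48, 95% interval 0.37 to 0.59, adjusted p = 9.99e-06 by limma). Without DMSO replicate 1 the log2 difference was 0.54.

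Genes of interleukin-6 signalling were among those that rose. SOCS3, which is induced by STAT3 and inhibits the pathway, went from 4.50 ± 0.448 to 24.4 ± 0.974 FPKM, IL6R, the receptor, from 3.51 ± 0.184 to 15.04 ± 0.125, and IL6 itself from 0.937 ± 0.0833 to 3.02 ± 0.236. IL6ST, the signalling chain gp130, fell from 53.2 ± 1.46 to 45.7 ± 1.06 FPKM. STAT3, outside the rule for named genes, was at 31.0 ± 0.446 and 32.8 ± 1.14 FPKM and did not pass (adjusted p = 0.0599 by limma). In the list of trypsins, their inhibitors and these signalling genes, 5 of 10 tested genes rose, among them IL6, which passed the filter only through carfilzomib, 2 fell and 3 did not pass. SPINK5, another inhibitor of the family, was the second gene that fell, from 1.35 ± 0.0334 to 1.04 ± 0.174 FPKM (adjusted p = 0.0338 by limma). This call was lost in 8 of 17 alternatives, among them the fit without any 1 of the DMSO libraries and the one without carfilzomib replicate 1 (log2 difference -0.13, adjusted p = 0.126 by limma).

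The 250 bases before a SPINK1 start site are shown beside those of AFP, since these secreted markers moved in opposite directions. They lie at chr5:147831672-147831921 on the minus strand (RefSeq, GRCh38.p14), and the capitals mark the STAT motif TTCNNNGAA, which starts 91 bases before the start site.
SPINK1 upstream window: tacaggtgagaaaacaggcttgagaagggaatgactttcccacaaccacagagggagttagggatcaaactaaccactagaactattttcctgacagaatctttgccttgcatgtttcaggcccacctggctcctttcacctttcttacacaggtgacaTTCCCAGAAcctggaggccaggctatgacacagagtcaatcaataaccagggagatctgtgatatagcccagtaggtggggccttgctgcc
The STAT motif was in 6.57% of the reference windows, and the TATA box was not found in the SPINK1 window. Among the 6 members with windows, the STAT motif was also found for IGF2BP2, which rose, and IGF2BP3, which fell. Whether the motif relates to the changes in expression was not tested. A heat shock element, in 0.44% of the reference windows, was found in neither gene's window.

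LIN28B binds let-7 precursors and blocks their maturation in fetal and tumour cells. It was at 51.1, 54.7 and 54.6 FPKM with DMSO and at 75.7, 74.1 and 70.0 FPKM with carfilzomib. All carfilzomib libraries were above all DMSO libraries. LIN28B rose 1.37-fold, from 53.5 ± 2.02 to 73.3 ± 2.91 FPKM (log2 difference 0.45, 95% interval 0.36 to 0.54, adjusted p = 2.58e-06 by limma). Its paralog LIN28A, outside the rule for named genes, had 1 reads over the DMSO libraries and 11 over the carfilzomib libraries.

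IGF2BP1 was the highest of the 3 IGF2BP genes in every library. It was at 39.6, 43.0 and 42.7 FPKM with DMSO and at 31.2, 29.8 and 30.9 FPKM with carfilzomib. IGF2BP1 fell 1.36-fold (log2 difference -0.43, 95% interval -0.52 to -0.35, adjusted p = 3.08e-06 by limma).

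IGF2BP3, found mainly in fetal tissue and tumours, was at 21.7, 22.7 and 22.1 FPKM with DMSO and at 14.02, 13.0 and 14.2 FPKM with carfilzomib. It fell 1.61-fold (log2 difference -0.65, 95% interval -0.75 to -0.56, adjusted p = 2.35e-07 by limma).

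IGF2BP2, which unlike its paralogs is also expressed in many adult tissues, went the other way. It was at 14.8, 15.05 and 14.9 FPKM with DMSO and at 18.97, 19.3 and 19.4 FPKM with carfilzomib, with an SD of at most 0.220 FPKM in a group. IGF2BP2 rose 1.29-fold (log2 difference 0.34, 95% interval 0.27 to 0.42, adjusted p = 5.71e-06 by limma).

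The makeup of the family shifted with these changes. IGF2BP2 was the lowest of the 3 genes in every DMSO library and stood above IGF2BP3 in every carfilzomib library. Its share of the summed FPKM of the family went from 18.95 ± 0.476% to 30.2 ± 0.729% (SD, n = 3). The share of IGF2BP3 went from 28.1 ± 0.379% to 21.6 ± 0.561% and that of IGF2BP1 from 53.0 ± 0.819% to 48.2 ± 0.341%. The ratio of IGF2BP2 to IGF2BP3 within a library was 0.685, 0.664 and 0.675 with DMSO and 1.35, 1.48 and 1.37 with carfilzomib. The summed level of the family went from 78.8 ± 2.42 to 63.6 ± 1.27 FPKM.

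**Figure D3:**
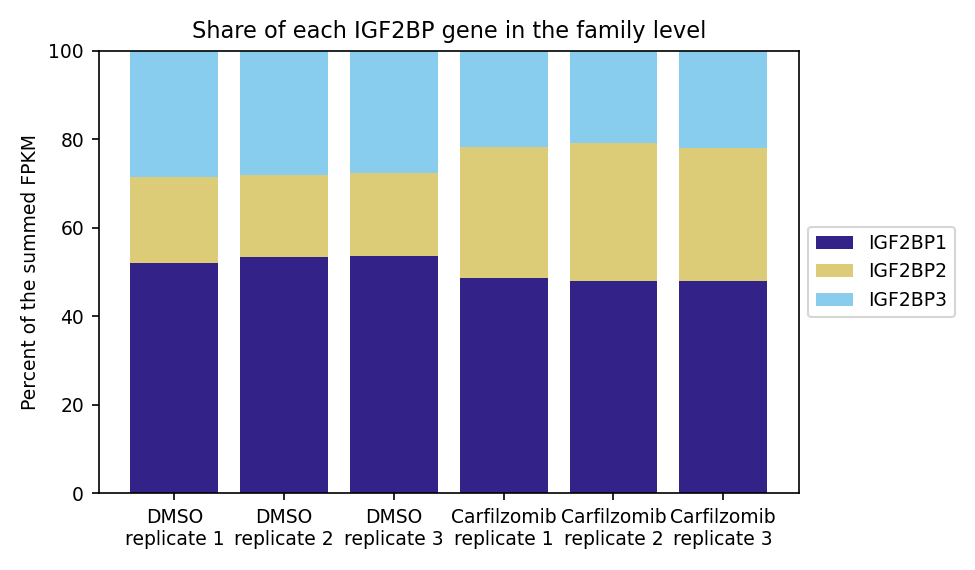
Share of IGF2BP1, IGF2BP2 and IGF2BP3 in the summed FPKM of the 3 genes, in percent, with 1 stacked bar per library. The IGF2BP2 band widens from 18.6 to 19.5% in the DMSO libraries to 29.6 to 31.0% in the carfilzomib libraries.

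LIN28B and the 3 IGF2BP genes hold matches to the let-7 seed in their 3′ UTRs. Mature let-7 microRNAs share 1 seed (bases 2 to 8, in capitals), shown for 4 of the 9 mature forms as RefSeq gives them, because LIN28B acts on these RNAs.
hsa-let-7a-5p: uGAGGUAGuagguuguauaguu
hsa-let-7d-5p: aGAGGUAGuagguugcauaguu
hsa-let-7g-5p: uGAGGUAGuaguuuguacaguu
hsa-miR-98-5p: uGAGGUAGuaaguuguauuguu
The complement of the seed, CTACCTC, was searched on the transcript strand of the longest annotated 3′ UTR of each gene (GENCODE release 29, GRCh38). It occurred 4 times in LIN28B (UTR of 4549 bases), 4 times in IGF2BP1 (6206 bases), 1 time in IGF2BP2 (1792 bases) and 1 time in IGF2BP3 (2153 bases). It was not found in the other 6 members, whose UTRs were 379 to 5161 bases long. Of 5709 genes with a 3′ UTR of 1792 to 6206 bases, 16.7% held at least 1 match and 0.12% (7 genes, LIN28B and IGF2BP1 among them) at least 4. This range was set by the 4 members with a match, which are counted in it. The median UTR in the range was 2900 bases, shorter than those of LIN28B and IGF2BP1, so these shares are not matched to their lengths. The first site of each gene is shown, with the match in capitals.
LIN28B, chr6:105078815-105078836, plus strand: cggttgcaaagtCTACCTCatg
IGF2BP1, chr17:49051064-49051085, plus strand: gtgcgaagtaaaCTACCTCaag
IGF2BP2, chr3:185644218-185644239, minus strand: acacagaagaagCTACCTCagg
IGF2BP3, chr7:23311793-23311814, minus strand: atttttactcaaCTACCTCagg
These 4 genes moved in both directions, and LIN28B and IGF2BP1, with 4 matches each, moved oppositely. Mature let-7 was not measured here. Over all tested genes, the median log2 difference was -0.06 for 9153 genes with no match, -0.09 for 1000 genes with 1 match and 0.03 for 144 genes with 2 or more. Their median UTR lengths were 1221, 2701 and 4957 bases, so the number of matches and UTR length cannot be told apart here.

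Of 37 tested genes of let-7 processing and published let-7 targets, 12 rose, 20 fell and 5 did not pass, with a median log2 difference of -0.19. These shares, 32.4% higher and 54.1% lower, are near those over all tested genes (36.7% and 44.9%). Of the 20 that fell, E2F2 and ACVR1C passed the filter only through DMSO. HMGA2, a chromatin protein of fetal tissue and a classic let-7 target, fell from 32.5 ± 0.812 to 5.62 ± 0.352 FPKM. The phosphatase DUSP9 fell from 98.6 ± 5.57 to 15.5 ± 0.214 and the transcription factor MYCN from 8.27 ± 0.527 to 1.57 ± 0.0815. The DNA-binding gene ARID3B (12.2 ± 0.862 to 28.1 ± 1.24 FPKM), the growth factor receptor IGF1R (3.07 ± 0.186 to 6.11 ± 0.313) and TUT7 (4.01 ± 0.204 to 10.4 ± 0.168) rose. TUT7 and TUT4 are the terminal uridylyltransferases that tail let-7 precursors, and TUT4, outside the rule for named genes, fell from 8.49 ± 0.318 to 4.70 ± 0.286 FPKM.

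The list of RNAs known to be bound by IGF2BP proteins, of writers, erasers and readers of the RNA mark m6A and of other RNA-binding proteins had 13 of 26 tested genes higher, 9 lower and 4 that did not pass, with a median log2 difference of 0.10. IGF2, the fetal growth factor after which the family is named, fell from 132 ± 0.163 to 42.2 ± 1.19 FPKM, and FOXM1, a cell cycle factor, from 35.2 ± 1.26 to 11.4 ± 0.496. CD44, a cell surface receptor, rose from 14.01 ± 0.462 to 88.1 ± 0.512 FPKM, the actin-bundling gene FSCN1 from 11.4 ± 0.176 to 18.9 ± 0.186, and the growth regulator MYC from 26.0 ± 0.883 to 40.2 ± 1.76.

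PEG10 is an imprinted gene derived from a retrotransposon, with gag-like and pol-like reading frames, and is often raised in liver cancer. It was at 291, 298 and 299 FPKM with DMSO and at 76.5, 78.5 and 77.2 FPKM with carfilzomib. The values within a group were close (SD 4.05 and 0.988 FPKM) and the groups far apart. PEG10 fell 3.82-fold, from 296 ± 4.05 to 77.4 ± 0.988 FPKM (log2 difference -1.92, 95% interval -1.98 to -1.86, adjusted p = 1.34e-11 by limma). Of all tested genes, 0.807% had a lower log2 difference.

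SGCE lies head to head with PEG10 on chromosome 7 and is also expressed from the paternal allele. It fell from 14.6 ± 0.242 to 11.7 ± 0.355 FPKM (log2 difference -0.30, 95% interval -0.38 to -0.21, adjusted p = 5.34e-05 by limma). The ratio of PEG10 to SGCE within a library was 20.3, 20.04 and 20.5 with DMSO and 6.57, 6.90 and 6.40 with carfilzomib. Among 13 tested genes of the imprinted regions of PEG10, DLK1 and IGF2 and of imprinted genes elsewhere (GRB10, MEST and PLAGL1), 9 fell, 3 rose and 1 did not pass, with a median log2 difference of -0.49. Of these, DIO3 passed the filter only through carfilzomib, and PON1, PPP1R9A and CDKN1C only through DMSO. The paraoxonase genes PON1 (4.45 ± 0.332 to 0.754 ± 0.204 FPKM) and PON3 (12.1 ± 0.824 to 3.30 ± 0.904), near PEG10, fell. TFPI2, a protease inhibitor gene of the same region, rose from 3.56 ± 0.474 to 16.01 ± 0.411 FPKM, and GRB10, an imprinted adaptor of insulin signalling, from 8.81 ± 0.225 to 13.8 ± 0.491.

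DLK1, a Notch-like transmembrane protein of fetal liver progenitors, was barely expressed. It was at 0.301, 0.282 and 0.179 FPKM with DMSO (55, 52 and 33 reads) and at 0.131, 0.0839 and 0.115 FPKM with carfilzomib (24, 15 and 21 reads). The groups did not overlap, and the counting error of the DMSO mean level was 14.6% for a library. The ratio of reads, carfilzomib to DMSO, was 0.435, with a 95% exact binomial interval of 0.316 to 0.593 that covers counting error only. DLK1 was below the filter of the test above. A fit without the filter gave a log2 difference of -0.17 (adjusted p = 0.0131 by limma), with 32.2% of genes called lower. Fitted on recovered reads with limma-voom, it was -1.17 (SE 0.410, adjusted p = 0.0145), with 34.2% called lower. In the imprinted domain of DLK1, DIO3, a deiodinase that inactivates thyroid hormone, rose from 0.125 ± 0.103 to 5.14 ± 0.274 FPKM (31 reads over the DMSO libraries and 1261 over the carfilzomib libraries). DIO3OS, RTL1, MEG8 and MEG9 of this domain, outside the rule for named genes, were below the filter. Over the DMSO and the carfilzomib libraries, they had 133 and 292, 1 and 18, 0 and 22, and 0 and 16 reads.

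Of 20 tested genes of the Notch pathway, 7 rose, 7 fell and 6 did not pass, with a median log2 difference of -0.03. The Notch target HES1 fell from 40.2 ± 1.77 to 18.2 ± 0.777 FPKM, its relative HES6 from 7.41 ± 0.750 to 2.00 ± 0.159, and POFUT1, which fucosylates Notch, from 42.7 ± 1.16 to 29.5 ± 0.349. ADAM17, a protease that can shed DLK1 from the cell surface, rose from 7.03 ± 0.353 to 13.1 ± 0.370 FPKM. NUMBL, a relative of the Notch inhibitor NUMB, rose from 1.59 ± 0.324 to 5.17 ± 0.317 and NCSTN, a subunit of gamma-secretase, from 21.1 ± 1.06 to 30.7 ± 0.910.

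TERT was also low, at 0.876, 0.819 and 1.07 FPKM with DMSO (139, 131 and 172 reads) and at 0.297, 0.322 and 0.393 FPKM with carfilzomib (47, 50 and 62 reads). Each carfilzomib library had less than any DMSO library. The ratio of reads, carfilzomib to DMSO, was 0.365 (95% exact binomial interval 0.303 to 0.439, for counting error only). The DMSO libraries varied by 14.5% (coefficient of variation), against 8.24% from counting. Its mean over all libraries, 0.630 FPKM, was below the filter. Without the filter the log2 difference was -0.52 (SE 0.0640, adjusted p = 3.10e-04 by limma), on a scale that understates the change of low genes, and limma-voom on recovered reads gave -1.44 (SE 0.251, adjusted p = 9.55e-06).

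Other genes of the telomerase complex moved both ways. DKC1, the dyskerin subunit that binds the telomerase RNA, was at 33.7 ± 0.787 and 31.5 ± 1.93 FPKM and did not pass (adjusted p = 0.0775 by limma), although it passed in 3 of 18 alternatives, 1 of them without carfilzomib replicate 2 (adjusted p = 0.0136). The ratio of TERT to DKC1 within a library was 0.0239 to 0.0328 with DMSO and 0.00963 to 0.0125 with carfilzomib. Of 20 tested genes of telomerase, shelterin and related complexes, 5 rose, 8 fell and 7 did not pass, with a median log2 difference of -0.08. GAR1, a partner of dyskerin, rose from 22.6 ± 1.55 to 44.1 ± 4.43 FPKM, and the assembly ATPases RUVBL1 and RUVBL2 rose from 24.8 ± 1.08 to 30.6 ± 1.29 and from 44.4 ± 0.936 to 69.0 ± 0.828. The shelterin genes ACD, which encodes TPP1 (9.28 ± 0.747 to 5.04 ± 0.715 FPKM), TERF1 (4.75 ± 0.162 to 3.44 ± 0.259) and POT1 (4.19 ± 0.335 to 3.17 ± 0.408) fell.

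Published regulators of TERT transcription had 10 of 20 tested genes higher, 8 lower and 2 that did not pass, with a median log2 difference of 0.16. ETS1, tested only through its level with carfilzomib, rose from 0.0612 ± 0.0125 to 6.82 ± 0.157 FPKM (22 reads over the DMSO libraries and 2414 over the carfilzomib libraries), KLF4 from 5.03 ± 0.497 to 13.1 ± 0.0956 and ETS2 from 9.94 ± 0.450 to 21.1 ± 0.457. The cell cycle factor E2F1 fell from 32.8 ± 1.79 to 13.4 ± 0.353 FPKM, the E-box binder USF2 from 17.3 ± 0.877 to 9.11 ± 0.759 and the chromatin factor CTCF from 31.4 ± 1.42 to 17.6 ± 0.626.

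The plain FPKM ratio of a pair of genes within a library does not depend on how that library was scaled. The permutation test and the log2 shifts below used ratios with 1 FPKM added to each gene. Such ratios can depend on the scaling, and the shifts of pairs with a low gene are smaller than in the plain ratios. In all 7 pairs compared the groups' plain ratios did not overlap. Each pair had an exact two-sided permutation p of 0.1 (adjusted 0.1 over the pairs), the smallest that 3 against 3 libraries allow. Single genes did not overlap in 82.8% of those tested, and the share over other pairs was not computed, so non-overlap alone does not set these pairs apart. AFP, GPC3 and IGF2BP3 are each in more than 1 pair. With 1 FPKM added to each gene, the log2 ratio, carfilzomib minus DMSO, moved by -1.62 for PEG10 to SGCE, -1.10 for GPC3 to GPC4, -0.43 for TERT to DKC1 and -0.33 for AFP to GPC3. It moved by 0.11 for AFP to ALB, 0.22 for IGF2BP1 to IGF2BP3 and 1.00 for IGF2BP2 to IGF2BP3.

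**Figure D4:**
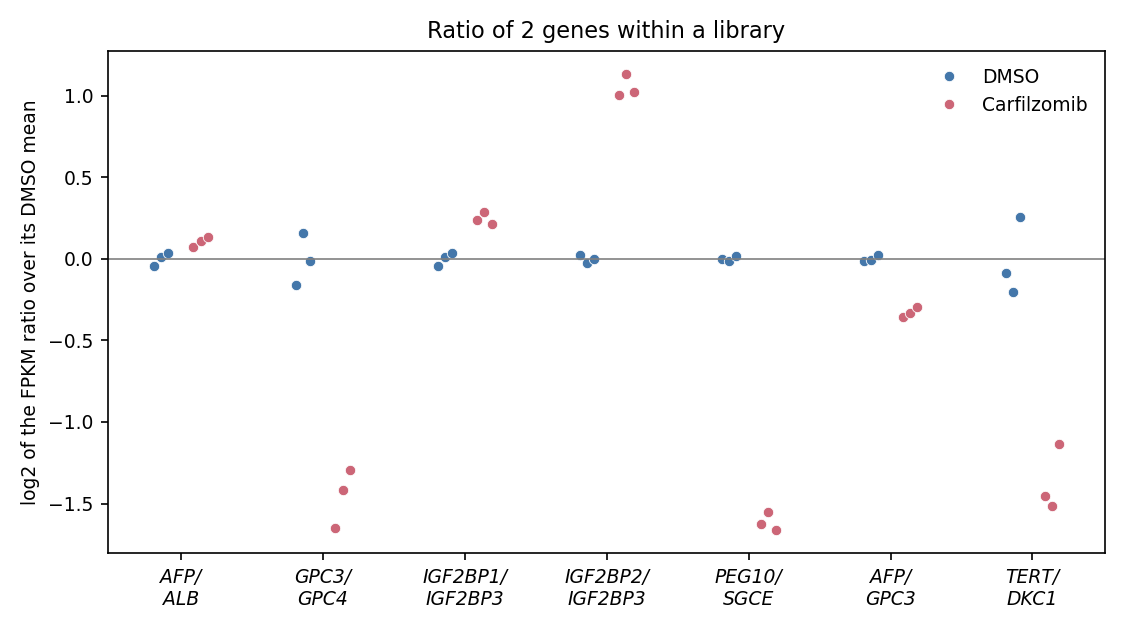
Log2 of the FPKM ratio of a gene pair in each library, relative to the mean ratio of the DMSO libraries (0 on the axis), for 7 pairs. The ratios are plain FPKM ratios, without 1 FPKM added. Points are libraries (blue, DMSO; red, carfilzomib), and no pair has overlapping groups; the ratio of IGF2BP2 to IGF2BP3 went from 0.674 ± 0.0105 to 1.40 ± 0.0693 and that of PEG10 to SGCE from 20.3 ± 0.240 to 6.62 ± 0.257.

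Of 23 tested other antigens of fetal liver, progenitor cells and liver cancer, 9 rose, 13 fell and 1 did not pass, with a median log2 difference of -0.25. SPP1, the secreted phosphoprotein osteopontin (22.8 ± 1.23 to 85.9 ± 2.02 FPKM), TM4SF1, a tumour surface antigen (116 ± 4.46 to 325 ± 10.5), and the bile duct and progenitor keratin KRT19 (values above) rose. EPCAM and SOX9, which are also in this list, fell. AKR1B10, a reductase raised in liver cancer (10.6 ± 0.958 to 3.06 ± 0.202 FPKM), VIL1, an actin-binding protein of the microvillus (35.0 ± 0.755 to 13.0 ± 0.198), and the surface glycoprotein CD24 (306 ± 1.78 to 133 ± 6.13) fell. Of 24 tested markers of mature hepatocytes, 22 fell, 1 rose and 1 did not pass, with a median log2 difference of -1.32. Of the 22 that fell, 3 passed the filter only through DMSO. The apolipoprotein gene APOC3 fell from 52.4 ± 3.19 to 9.68 ± 2.02 FPKM and haptoglobin, HP, from 59.0 ± 6.73 to 11.7 ± 1.75. The gene that rose was HPD, which acts in tyrosine catabolism (1.45 ± 0.138 to 9.90 ± 0.567 FPKM).

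**Figure D5:**
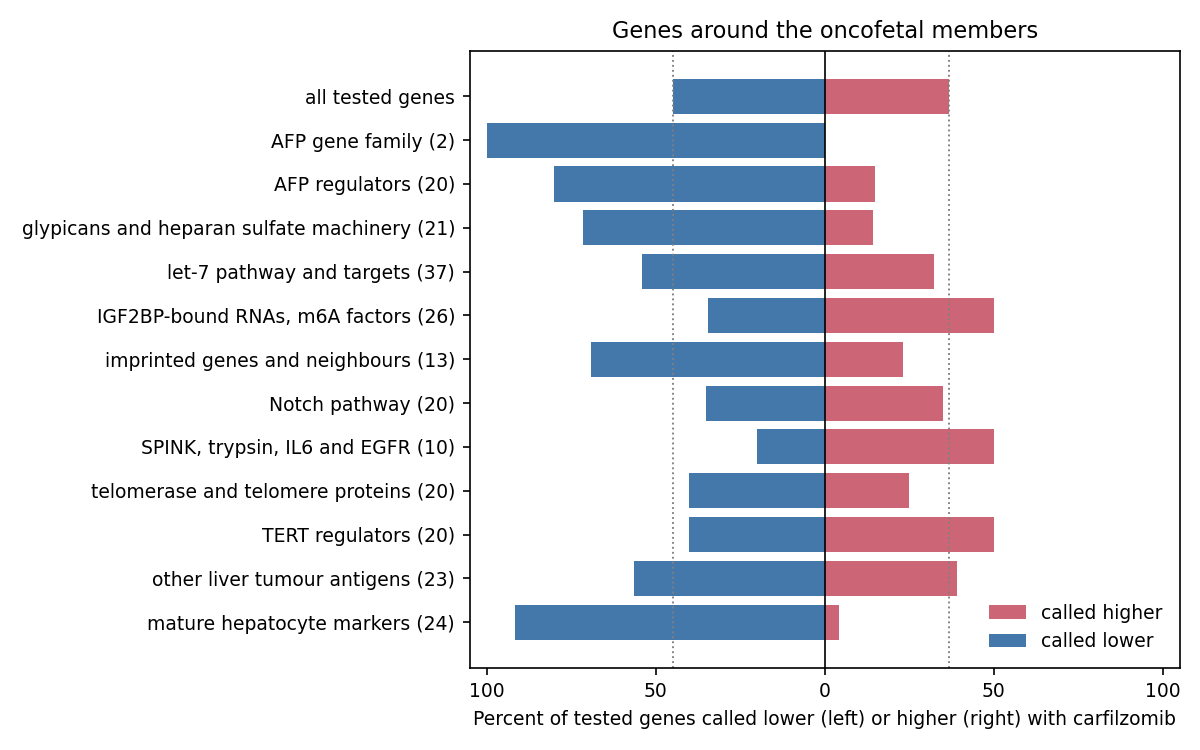
Percent of the tested genes of each list called lower (blue, left) or higher (red, right) with carfilzomib, with the number tested in brackets; dotted lines mark the shares over all 11153 tested genes (44.9% lower and 36.7% higher). Regulators of AFP were lower in 80.0% of cases and mature hepatocyte markers in 91.7%, while the Notch list had 35.0% on each side. The lists were chosen with earlier results of these data known.

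For the 4 most abundant members, the 3 tested genes with the most similar profile over the 6 libraries were found by Euclidean distance between log2(FPKM + 1) values, each centred on its gene's mean. With 2 groups, this mainly finds genes with a log2 difference of like size. For AFP they were COL5A2, SPC24 and H2BC7 (distances 0.0518 to 0.0544). COL5A2 went from 132 to 56.4 FPKM, SPC24 from 5.28 to 1.75 and H2BC7 from 1.78 to 0.217. In plain FPKM, SPC24 and H2BC7 thus fell by a larger factor than AFP (2.30-fold). They lie near AFP only with 1 FPKM added. H2BC7 passed the filter only through DMSO. The genes were NAA20, SELENOM and EIF6 for SPINK1 (0.0445 to 0.0583) and CKAP4, MOV10 and LBR for GPC3 (0.0355 to 0.0370). For PEG10 they were SERPIND1, SAPCD2 and ALDH7A1 (0.0790 to 0.0886).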

How the data were processed

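RNA was measured in 6 Huh7 libraries made with a stranded mRNA kit, per the labels' protocols. The authors deposited 1 table of FPKM values for 19021 gene symbols. Tools listed in the submitters' processing notes, in no order, are fastp, HISAT2, HTSeq, DESeq2 and R 3.2.0. They list GRCm39, a mouse build, although the rows carry human symbols, so the build behind the table is unclear and all coordinates are those of the human reference. Whole reads were recovered from ratios between FPKM values in 19018 genes (99.98%, relative tolerance 1e-12), every member included. Replicate libraries varied beyond counting noise, with a chi-square per degree of freedom of 3.68 to 6.89.

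The test was two-sided, run as a linear model in limma 3.58.1 with moderated variances and a mean trend (R 4.3.3), on log2(FPKM + 1) of 11153 genes whose mean was 1 FPKM or more, with Benjamini-Hochberg adjustment. Differences on this scale understate the change of low genes. Values are means ± SD over 3 libraries. The fit and the recovery of reads were tested on simulated data. The members and lists were chosen with earlier results of these data known. Named in each list were the 3 largest rises and the 3 largest falls past the test, by log2 difference on this scale, and the partners in pairs. Genes said to be outside this rule were chosen after their values were seen. MEG3, meant as a partner of DLK1, is not analysed here, and a few genes and 1 motif are not reported here. Promoter windows were found for 6 of the 10 members. Alternatives were pseudocounts of 0.1 and 5, no filter, a filter at 5 FPKM, median-of-ratios scaling, TPM, quantile normalization, a replicate block, eBayes without trend or robust, limma-voom on recovered reads, and each library left out. After the data were seen, limma-voom without a filter was added. Same-numbered libraries of the groups did not deviate together (correlations -0.0121, -0.00341 and 0.0126), so the numbers were not taken to pair them.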

Additional observations from a re-analysis of the deposited data

How the results depend on the processing

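All 144 log2 differences of the 8 tested members under 18 alternatives kept their direction and their side of the threshold, with a highest adjusted p of 2.69e-04 by limma (SPINK1, no filter). Counts of members were 3 higher and 5 lower throughout, except 7 lower with no filter, which adds TERT and DLK1. The AFP fall moved most with quantile normalization, to -0.81 from -1.20 on the log2 scale, and the cause was not tested. With the replicate number as a block, 3 members were higher and 5 lower (highest adjusted p 5.90e-05 by limma), and 4059 genes were higher and 4995 lower over all genes. With a mean of at least 5 FPKM, which leaves 7375 genes, 3246 were lower against 5007. Leaving out 1 library at a time gave 3951 to 3994 genes higher and 4831 to 4982 lower. The members then ranged over -1.21 to -1.20 (AFP), -0.89 to -0.86 (GPC3), 0.43 to 0.54 (SPINK1), 0.42 to 0.48 (LIN28B), -0.47 to -0.41 (IGF2BP1), 0.34 to 0.35 (IGF2BP2), -0.67 to -0.62 (IGF2BP3), -1.93 to -1.91 (PEG10). Log2 ratios with a low gene moved with the pseudocount by construction, GPC3 to GPC4 to -1.37 at 0.1 and -0.92 at 5, and TERT to DKC1 to -1.13 and -0.0662. At 5, IGF2BP1 to IGF2BP3 was 0.15 and IGF2BP2 to IGF2BP3 0.82. List counts that moved over 1.5 times did so mostly with the filter, which changes how many genes are tested. At 5 FPKM, 1 AFP regulator rose against 3, 1 glypican-list gene rose against 3 and 8 fell against 15, 5 imprinted-list genes fell against 9, and 4 telomerase-list genes fell against 8. With no filter, 6 glypican-list genes rose and 12 Notch genes fell against 7, and limma-voom without a filter gave 12 Notch genes lower and 8 imprinted-list genes higher against 3. The SPINK list had 1 gene lower against 2 in 7 alternatives, among them those without DMSO replicate 1 or 2 or carfilzomib replicate 1. Depth limits DLK1 and TERT, with 60 and 159 reads over the carfilzomib libraries.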
